A study of Homo sapiens with 2 samples.

Results

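The HMGB, HMGA and HMGN families are architectural chromatin proteins, and the data here describe how accessible the chromatin at their own genes was in U2OS, an osteosarcoma line long established in culture from human bone tumour tissue. The 10 genes were HMGB1, HMGB2, HMGB3, HMGA1, HMGA2 and HMGN1 to HMGN5, of 20033 protein-coding genes in all. Every deposited peak from 10 kb before to 10 kb after the RefSeq bounds of each gene was taken, which gave 83 of 302466 peaks in sh-VNGD and 70 of 213285 peaks in sh-ctrl. Peaks that overlapped by at least 1 bp were joined into 99 regions.

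In sh-VNGD cells a short hairpin had been introduced by infection to target Vanguard, a long non-coding RNA that the study's title ties to glucose deprivation and to DNA repair through chromatin remodelling. The sh-ctrl cells carried a control hairpin, introduced the same way. Both were grown in DMEM with 10% serum, with no glucose deprivation given in the labels, and each group was 1 ATAC-seq library. ATAC-seq marks open DNA by where the Tn5 transposase cuts it. It measures no RNA, so neither the knockdown nor the level of any HMG transcript was measured. With 1 library a group no difference below has a replicate check and no p-value was computed. A bulk library also cannot tell apart fewer open cells and less opening per cell.

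HMGB proteins carry HMG boxes that slip into the minor groove and bend DNA sharply. HMGB1, the most studied of them, is also released from stressed or dying cells as an inflammatory signal. HMGA proteins hold AT-hooks that grip AT-rich minor grooves, and HMGA2 in particular is an embryonic protein that is re-expressed in many tumours, including mesenchymal ones. HMGN proteins bind the nucleosome core itself and loosen chromatin in part by competing with linker histone H1.

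RefSeq start positions were available for 12 starts of 8 of these genes, and the 250 bases before each start were searched for short promoter motifs on both strands. The CCAAT box, spelled CCAAT or ATTGG on the other strand, is the target of the factor NF-Y and is common in promoters of genes active in dividing cells. It was found in 7 of the 12 windows, compared with 32.7% of all 22174 windows of 15841 genes. These 7 windows belonged to 6 of the 8 genes, a count by gene for which no share over all genes was computed. At least 2 copies were present in 4 of the 12 windows, compared with 10.5% of all windows. At least 3 copies were present in 2 of the 12, compared with 3.34%. None of the 13 copies overlapped another motif searched. The windows with 2 or 3 copies are shown because their summits of accessibility are described below, and the first HMGA1 window is shown for contrast because it held none. Each runs 5′ to 3′ along the gene and ends at the base before the RefSeq start (build GRCh38.p14), and capitals mark CCAAT or ATTGG.
HMGB1 inner start, chr13:30465937-30466186, minus strand: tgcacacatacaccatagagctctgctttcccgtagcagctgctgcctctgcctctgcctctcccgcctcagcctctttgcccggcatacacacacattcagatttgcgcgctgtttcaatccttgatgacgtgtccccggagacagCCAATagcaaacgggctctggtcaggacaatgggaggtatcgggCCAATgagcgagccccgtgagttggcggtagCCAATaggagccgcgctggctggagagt
HMGB3 first start, chrX:150983085-150983334, plus strand: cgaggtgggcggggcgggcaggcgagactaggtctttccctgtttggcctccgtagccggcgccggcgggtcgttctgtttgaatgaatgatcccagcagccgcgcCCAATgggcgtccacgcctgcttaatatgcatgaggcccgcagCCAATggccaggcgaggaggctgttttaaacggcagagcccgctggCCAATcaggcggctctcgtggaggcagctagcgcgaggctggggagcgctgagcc
HMGN1 start, chr21:39349089-39349338, minus strand: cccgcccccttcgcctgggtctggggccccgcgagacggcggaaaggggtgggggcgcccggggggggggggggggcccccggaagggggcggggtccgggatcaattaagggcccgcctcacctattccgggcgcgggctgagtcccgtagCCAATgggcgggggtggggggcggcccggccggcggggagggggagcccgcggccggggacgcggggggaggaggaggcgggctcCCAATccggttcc
HMGN3 start, chr6:79234683-79234932, minus strand: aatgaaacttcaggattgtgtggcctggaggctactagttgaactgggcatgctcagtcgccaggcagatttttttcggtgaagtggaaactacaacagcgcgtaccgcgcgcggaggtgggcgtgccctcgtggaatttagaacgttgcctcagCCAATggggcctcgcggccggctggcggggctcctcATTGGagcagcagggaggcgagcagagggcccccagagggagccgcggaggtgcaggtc
HMGA1 first start, chr6:34236623-34236872, plus strand: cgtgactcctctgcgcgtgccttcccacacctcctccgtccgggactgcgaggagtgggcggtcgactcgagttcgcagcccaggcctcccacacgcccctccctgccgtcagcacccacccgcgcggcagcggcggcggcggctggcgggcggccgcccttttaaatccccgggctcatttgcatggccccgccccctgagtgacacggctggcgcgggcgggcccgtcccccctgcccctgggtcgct

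In the HMGB1 window the boxes lay 103 to 99, 59 to 55 and 28 to 24 bases before the start, and in the HMGB3 window 144 to 140, 101 to 97 and 55 to 51 bases before it. The HMGN3 boxes lay 95 to 91 and 59 to 55 bases before the start, on opposite strands. Those of HMGN1 lay 98 to 94 and 13 to 9 bases before it. Of the 7 windows with a box, 3 had the summits of both libraries between their boxes or a few bases before the first. How often this holds among all windows with a box was not computed. At the HMGB1 inner start the summits were 108 bp (sh-VNGD) and 107 bp (sh-ctrl) before the start, a few bases before the first box. At HMGB3 they were 91 bp (sh-VNGD) and 71 bp (sh-ctrl) before it, between the 2 boxes nearest to it. At HMGN3 they were 76 bp (sh-VNGD) and 77 bp (sh-ctrl) before the start, between its boxes. The HMGN1 summits, 321 bp (sh-VNGD) and 344 bp (sh-ctrl) before the start, lay outside the window searched, as did those of the second HMGA1 start, the downstream HMGB1 start and HMGN2, which held 1 box each.

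Other motifs were found with and without CCAAT boxes. The GC box GGGCGG, bound by SP1 and its relatives, was found in 8 of the 12 windows, compared with 53.7% of all windows. The TATA box TATAAA was found in 0 of 12, compared with 9.0%. The ETS site CCGGAAG was found in 4, those of the HMGB1 outer start, HMGN1, HMGN4 and HMGN5, compared with 10.7%. The E-box CACGTG was found once, in HMGN2 (7.38% of all windows), and the CRE core TGACGT once, at the HMGB1 inner start (8.00%). The octamer ATGCAAAT was found once, on the reverse strand of the first HMGA1 window, compared with 1.58% of all windows. Its last base lies 65 bases before the start. GC content of the 12 windows ran between 51.2% and 87.6%, beside a median of 62% over all windows.

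**Figure D1:**
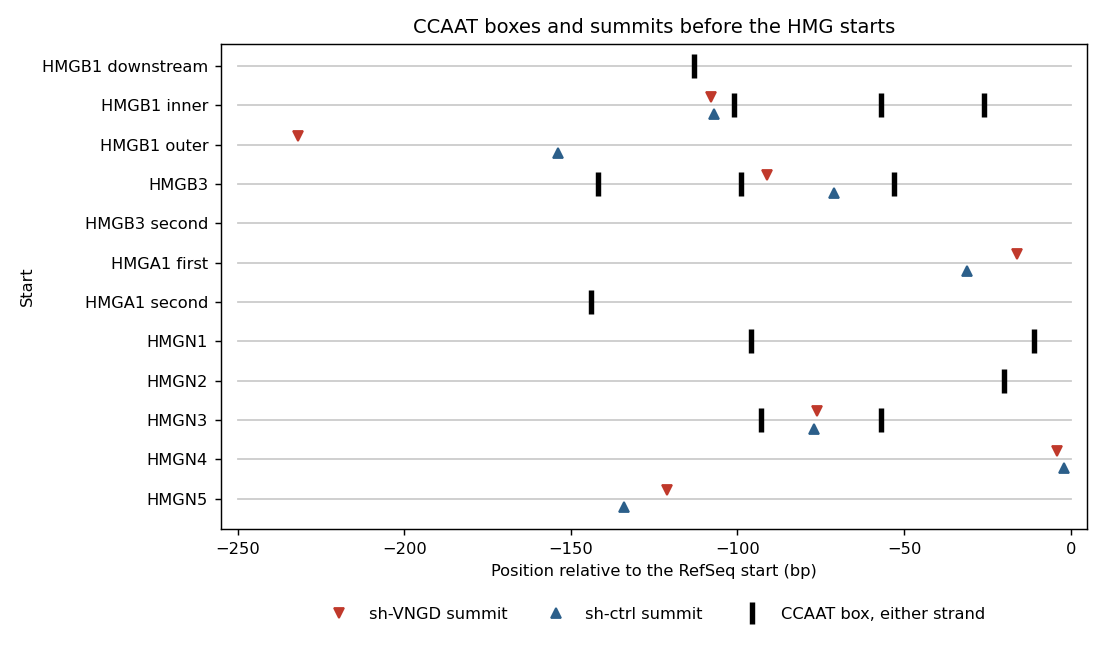
Position of CCAAT boxes on either strand (black bars) and of the accessibility summits (red triangles pointing down, sh-VNGD; blue triangles pointing up, sh-ctrl) in the 250 bp before each of the 12 RefSeq starts, in bp from the start. Summits of HMGB1 inner, HMGB3 and HMGN3 lie within the span of their boxes or a few bp before it, and starts with no triangle have their summit outside the window or no peak.

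All 10 genes had an accessible start region in both libraries, as did 13219 of the 20033 protein-coding genes. None of the 10 was called changed. The value followed is the summit pileup, the number of tags that cover the highest point of a peak. Its sh-VNGD over sh-ctrl ratio, each divided by the tags kept in its library, was taken on the log2 scale. The median of this ratio over 13219 genes with a start region in both libraries was −0.45, and ratios are given relative to it, with an exact Clopper-Pearson 95% interval that covers counting error only. A region was called when it lay at least 1.5-fold from the median. Of all genes, 3.22% were called lower in sh-VNGD and 6.91% higher. Of the 10 genes 0 were called in either direction, 5 lay below the median, 4 above and 1 on it, and the median of the 10 was −0.02. No interval excluded 0, whereas intervals lay wholly below 0 for 4.15% of all genes and wholly above 0 for 4.29%. The quartiles of all genes were −0.18 and 0.19. Of the 8 HMG genes with a mean start pileup of at least 50 tags 0 were called, beside 2.13% called lower and 1.37% called higher among all genes that high.

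**Figure D2:**
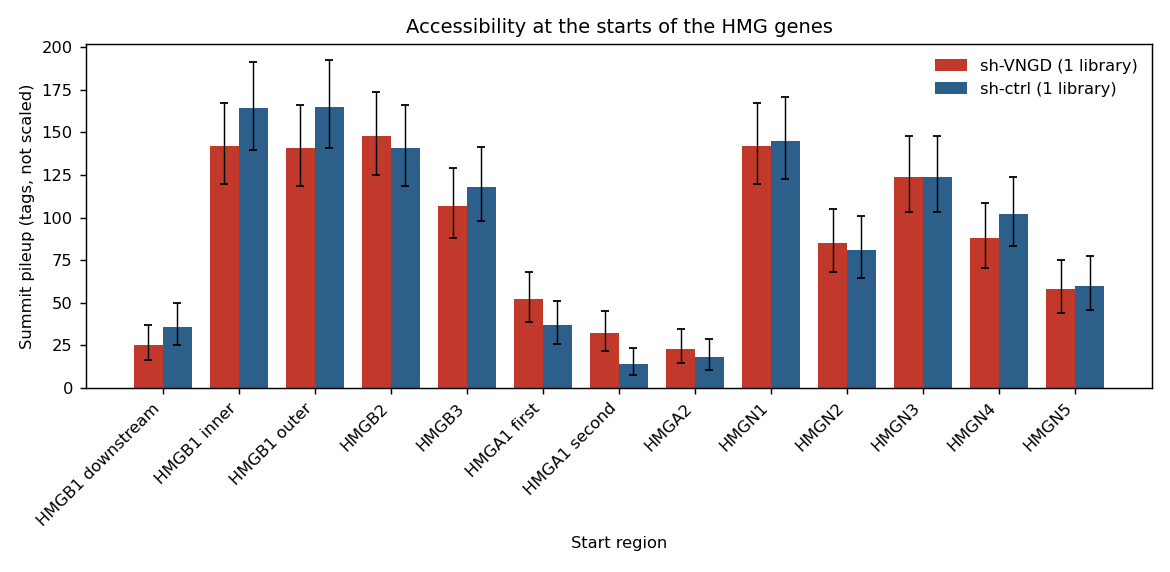
Summit pileup in tags, not scaled for depth, of the 13 start regions of the HMG genes in sh-VNGD (red) and sh-ctrl (blue), 1 library each, with exact Poisson 95% intervals that cover counting error only. The outer and inner HMGB1 starts, HMGB2, HMGN1 and HMGN3 stand at 124 tags or more in both libraries, and HMGA2 and the second HMGA1 start at 32 or fewer.

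The level of accessibility differed far more between the genes than between the libraries. Beside a median start pileup over all genes of 74 tags in sh-VNGD and 76 tags in sh-ctrl, HMGB2 was highest in sh-VNGD with 148 tags and HMGB1 highest in sh-ctrl with 165 tags. HMGB1, HMGB2, HMGN1 and HMGN3 formed the upper end in both libraries. HMGB3, HMGN4 and HMGN2 followed, HMGN5 and HMGA1 stood below the median gene, and HMGA2 was lowest in both. Counting intervals of HMGB1, HMGB2, HMGN1 and HMGN3 overlapped within each library. Overlap alone does not settle their order, and differences between genes were not tested. HMGA2 exceeded only 12.1% of genes in sh-VNGD and 9.38% in sh-ctrl, whereas HMGB2 exceeded 93.8% in sh-VNGD and 89.5% in sh-ctrl.

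Among the HMGB genes, HMGB1 had 3 start regions, because its RefSeq bounds span 161 kb (chr13:30456704-30617597, minus strand). The outer start had 141 tags in sh-VNGD and 165 tags in sh-ctrl, a relative log2 ratio of −0.23 (95% interval −0.56 to 0.11). The bounds of USPL1, a SUMO isopeptidase gene, begin 323 bp from this start, so the region cannot be assigned to HMGB1 alone. The inner start, whose CCAAT boxes are shown above, had 142 tags in sh-VNGD and 164 tags in sh-ctrl, at −0.21 (−0.54 to 0.13). It lies 152 kb from the outer one, has no bounds of another gene within 1 kb and was as high as the shared one. A downstream start, 696 bp further along the gene, had a smaller region with 25 tags in sh-VNGD and 36 tags in sh-ctrl, at −0.53 (−1.32 to 0.25). All 3 thus lay below the median of all genes, by less than their counting error.

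HMGB2, an HMGB protein abundant in dividing cells, spans 2.98 kb (chr4:173331376-173334358), and its start was taken as its outer end. It had 148 tags in sh-VNGD and 141 tags in sh-ctrl, at 0.07 (−0.27 to 0.41), with summits 215 bp (sh-VNGD) and 216 bp (sh-ctrl) outside that end. This was the only accessible region in the whole HMGB2 locus in either library. In sh-VNGD it was called as 2 peaks, the second with 48 tags 919 bp outside the gene, and in sh-ctrl as 1 peak of 1438 bp. The local background there, recovered from the deposited fold enrichment, was 10.3 tags in sh-VNGD and 13.5 tags in sh-ctrl. HMGB3 (chrX:150980507-150990771), a family member known from mouse blood stem cells, had 107 tags in sh-VNGD and 118 tags in sh-ctrl at its first start, at −0.14 (−0.53 to 0.25). Its second start, at 150984391, had no summit within 1 kb in either library.

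Both HMGA genes lay above the median of all genes. They were also the only HMG genes with a mean start pileup below 50 tags. Higher calls were more common at weak starts in general, at 6.91% of all genes but 1.37% of genes with a mean of at least 50 tags. The position of the HMGA genes was not tested apart from this. HMGA1 (chr6:34236873-34246231) had 52 tags in sh-VNGD and 37 tags in sh-ctrl at its first start, at 0.49 (−0.14 to 1.14), the highest of the 10 genes by summit pileup but not by fold enrichment or summed pileup. At its second start, 1.92 kb further along, a region with its summit 564 bp (sh-VNGD) or 563 bp (sh-ctrl) before the start had 32 tags in sh-VNGD and 14 tags in sh-ctrl. This region was 1.19 above the median (0.25 to 2.21), the only one of the 13 start regions to be called and the only one whose interval excluded 0. It rests on few tags, and a weaker start like this one does not enter the share of all genes called, which counts the strongest start of each gene. The local background was also higher in sh-VNGD there, at 4.28 tags against 2.60 tags in sh-ctrl, and at the first start at 4.08 tags in sh-VNGD against 2.74 tags in sh-ctrl. With the fold enrichment over local background in place of the pileup, the first start stood at 0.15. The deposited fold enrichment at the second was 6.25 in sh-VNGD and 4.17 in sh-ctrl. A predicted protein-coding gene, LOC124901225, has bounds that overlap both regions. The first region is also its start region, so that region cannot be assigned to HMGA1 alone.

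HMGA2 (chr12:65824460-65966291), whose messenger RNA is the classic target of let-7 microRNAs, had 23 tags in sh-VNGD and 18 tags in sh-ctrl at its start, at 0.35 (−0.60 to 1.33). The summits lay 115 bp (sh-VNGD) and 336 bp (sh-ctrl) inside the gene. A separate small region just before the gene had 21 tags in sh-VNGD and 22 tags in sh-ctrl. The bounds of RPSAP52, a transcribed pseudogene, overlap both this region and the start region. The start of this long gene was thus weakly accessible in both libraries.

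Of the HMGN genes, 4 of 5 lay within 0.1 of the median of all genes. HMGN1 (chr21:39342315-39349088), which is known to assist DNA repair in chromatin, had 142 tags in sh-VNGD and 145 tags in sh-ctrl, at −0.03 (−0.37 to 0.31). HMGN3 (chr6:79201245-79234682) had 124 tags in both libraries, which placed it on the median (−0.37 to 0.37). The bounds of the non-coding gene HMGN3-AS1 overlap its start region. HMGN5 (chrX:81113699-81201913), a member with a long acidic tail, had 58 tags in sh-VNGD and 60 tags in sh-ctrl, at −0.05 (−0.60 to 0.50). The start of SH3BGRL lies 189 bp from that of HMGN5 and shares its region. HMGN4 (chr6:26538366-26546933), a gene without introns that arose from a copy of the HMGN2 transcript, was the exception with 88 tags in sh-VNGD and 102 tags in sh-ctrl, at −0.21 (−0.64 to 0.21). Its summits lay 4 bp (sh-VNGD) and 2 bp (sh-ctrl) before the start, the closest of all 13 regions.

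HMGN2 (chr1:26472440-26476642) was the gene whose value turned on how peaks were matched. In sh-VNGD its start region held 2 peaks with 473 bp between them, with 53 tags at a summit 394 bp before the start and 85 tags at a summit 739 bp after it. In sh-ctrl 1 peak of 1439 bp spanned the same stretch, with 81 tags at a summit 366 bp before the start. The highest peaks, 85 tags in sh-VNGD and 81 tags in sh-ctrl, gave 0.07 (−0.39 to 0.53), although their summits were 1105 bp apart. The neighbouring upstream summits, 28 bp apart, gave −0.61 (−1.14 to −0.09), a comparison chosen after the values were seen. At the downstream summit the sh-ctrl pileup is not listed and cannot exceed the 81 tags of its own summit. Summing 2 sh-VNGD summits against 1 of sh-ctrl gave 0.77 (0.36 to 1.18), which counts the split of the peak itself.

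Elsewhere the summits hardly moved. The distance between the highest summits of the libraries had a median of 15 bp over the 13 start regions, compared with 20 bp over all genes, and 5 of the 13 matched within 5 bp (20.7% of all genes). HMGN2 and HMGA2, with a gap of 221 bp, were the 2 of 13 above 100 bp (9.09% of all genes).

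**Figure D3:**
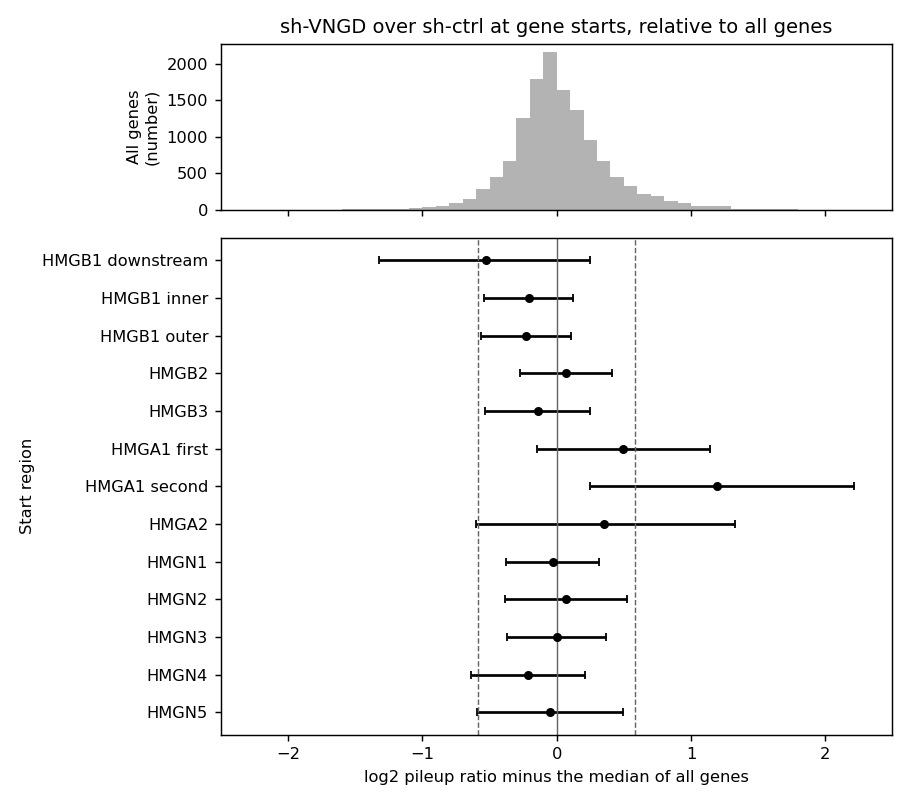
Relative log2 pileup ratio of sh-VNGD over sh-ctrl for the 13 start regions (points, with exact 95% intervals for counting error) below the distribution of 13219 genes (grey bars, number of genes); dashed lines mark 1.5-fold. The second HMGA1 start at 1.19 is the only region past a dashed line, and all other intervals include 0.

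Inside the genes, 60 further regions were accessible, of which 25 held peaks of both libraries, 20 of sh-VNGD only and 15 of sh-ctrl only. The share of regions found in 1 library was not computed over all inner regions or for single loci of other genes. Counted as peaks near any protein-coding gene, 46.1% in sh-VNGD and 27.3% in sh-ctrl had no overlapping peak in the other library. Inner ratios are given relative to the median of 65548 inner regions of all genes (−0.26). Of the 25 shared regions 1 was called lower in sh-VNGD and 4 higher, beside 12.1% and 11% of all inner regions, and their median was −0.15. For all 25 the interval included 0, as it did for all but 8% (below) and 2.58% (above) of inner regions in general. Regions found in 1 library were weak, with 11 to 24 tags (median 15) in sh-VNGD and 7 to 25 tags (median 13) in sh-ctrl, against medians of 21 tags in sh-VNGD and 16 tags in sh-ctrl for the shared ones.

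HMGB1 held 30 of these, and its locus held 36 regions in all, 14 of them shared, 15 in sh-VNGD only and 7 in sh-ctrl only. Its strongest inner region (chr13:30486226-30487377), 20.7 kb before the inner start, had 66 tags in sh-VNGD and 77 tags in sh-ctrl, at −0.42 (−0.91 to 0.08). In sh-ctrl it was called as 2 peaks, the second with 20 tags. A region 66.2 kb inside the outer start had 38 tags in sh-VNGD and 37 tags in sh-ctrl, at −0.15 (−0.85 to 0.54). Another, 40.1 kb inside it, was called higher with 28 tags in sh-VNGD and 16 tags in sh-ctrl, at 0.61 (−0.32 to 1.60). The other 7 shared inner regions had 12 to 16 tags in sh-VNGD and 9 to 17 tags in sh-ctrl. The sh-ctrl library alone had peaks of 25, 21 and 14 tags between 11.9 and 15.5 kb before the inner start and 4 more of 7 to 14 tags elsewhere. The 13 inner regions of sh-VNGD only had 11 to 20 tags and were spread over the gene. After the gene, 1 shared region had 14 tags in sh-VNGD and 19 tags in sh-ctrl, called lower at −0.60 (−1.71 to 0.47), and 2 of sh-VNGD only had 13 and 10 tags.

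HMGA2 had 16 regions, 10 of them shared, 2 in sh-VNGD only and 4 in sh-ctrl only. Some of its inner regions exceeded its start in each library. The highest, 54.3 kb inside the gene, had 28 tags in sh-VNGD and 36 tags in sh-ctrl, at −0.56 (−1.32 to 0.20). A region 16.5 kb inside had 27 tags in sh-VNGD and 12 tags in sh-ctrl, at 0.98 (−0.05 to 2.09), and was called higher. The next, 24.3 kb inside, was called lower with 15 tags in sh-VNGD and 22 tags in sh-ctrl, at −0.75 (−1.80 to 0.27), so neighbouring regions lay on opposite sides of the median. The other 5 shared inner regions had 17 to 22 tags in sh-VNGD and 14 to 21 tags in sh-ctrl. Inside the gene sh-ctrl alone had 4 peaks of 9 to 16 tags and sh-VNGD alone 1 of 11 tags, and 9.79 kb before the start sh-VNGD alone had 1 of 13 tags.

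HMGN5 had 11 regions, of which 7 were shared and 4 were found in sh-VNGD only, with none in sh-ctrl only. A region 80.1 kb inside the gene (chrX:81121564-81122351) was about as high as the start, with 53 tags in sh-VNGD and 64 tags in sh-ctrl, at −0.46 (−1.02 to 0.08). A weaker one beside it had 17 tags in both libraries. Near the start, a region 5.97 kb inside had 27 tags in sh-VNGD and 30 tags in sh-ctrl, at −0.34 (−1.15 to 0.45). In the middle of the gene a region 27.4 kb inside had 22 tags in sh-VNGD and 10 tags in sh-ctrl, at 0.94 (−0.19 to 2.19). A region 44.1 kb inside had 24 tags in sh-VNGD and 12 tags in sh-ctrl, at 0.81 (−0.25 to 1.94). Both were called higher, and all 4 regions of sh-VNGD only, with 14 to 24 tags, also lay inside the gene. A region 6.77 kb before the start, in SH3BGRL, had 21 tags in sh-VNGD and 28 tags in sh-ctrl, at −0.58 (−1.47 to 0.29). In sh-VNGD that region held a second peak of 10 tags.

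**Figure D4:**
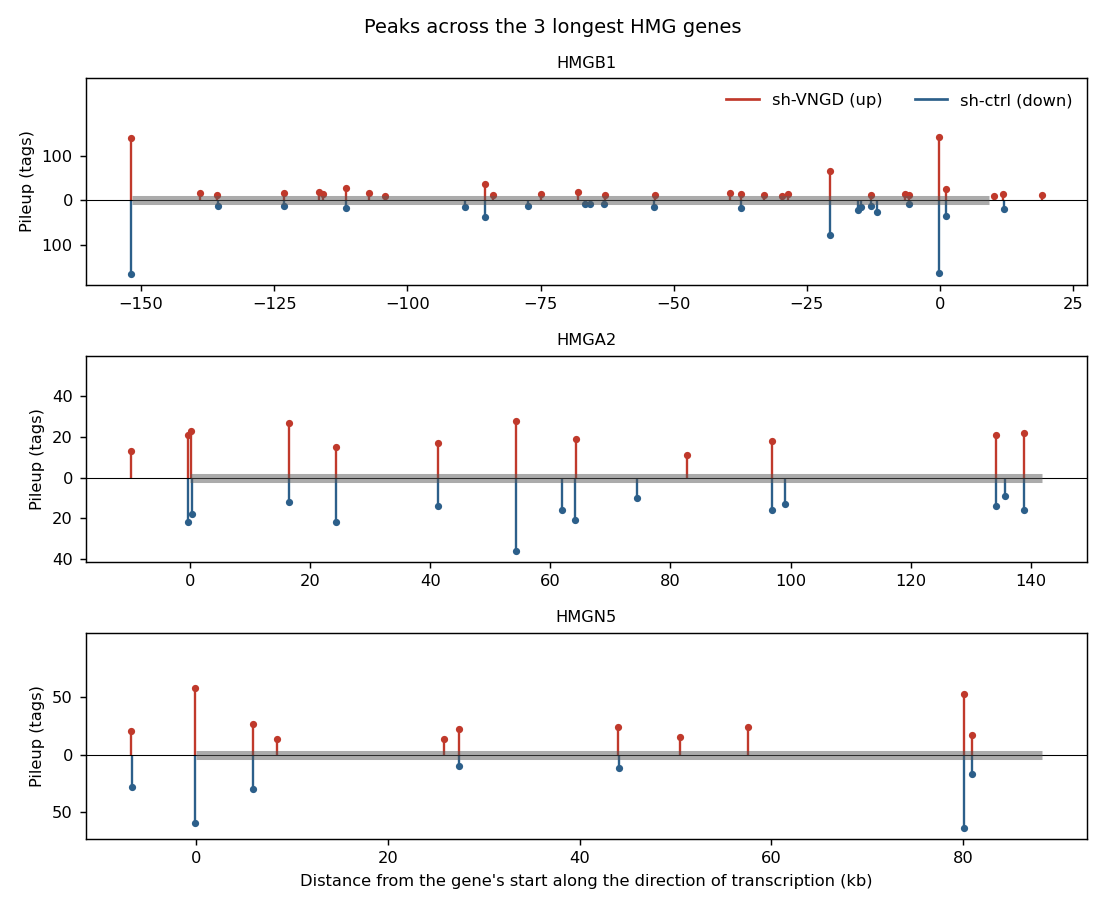
Highest summit pileup in tags of each region across HMGB1, HMGA2 and HMGN5 (sh-VNGD, red, upward; sh-ctrl, blue, downward), by distance in kb from the start along the direction of transcription (the inner start for HMGB1); grey bars are the RefSeq bounds and each panel has its own vertical scale. HMGB1 shows start regions of 141 and 142 tags in sh-VNGD 152 kb apart, and HMGA2 no region above 36 tags in either library.

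The shorter genes had few inner regions. HMGA1 had 1 shared inner region, 5.90 kb past its second start, with 44 tags in sh-VNGD and 47 tags in sh-ctrl, at −0.29 (−0.91 to 0.34), and 1 of sh-ctrl only with 16 tags 796 bp inside the first start. HMGN3 had a strong shared region 770 bp (sh-VNGD) or 771 bp (sh-ctrl) inside the gene, with 82 tags in sh-VNGD and 87 tags in sh-ctrl, at −0.28 (−0.73 to 0.17). The bounds of HMGN3-AS1 overlap this region too. Further inside HMGN3 lay 1 region of sh-VNGD only with 21 tags and 2 of sh-ctrl only with 12 and 11 tags. HMGN4 had 1 inner region of sh-VNGD only with 22 tags and 1 of sh-ctrl only with 19 tags. No inner region was found in HMGB2, HMGB3, HMGN1 or HMGN2 in either library.

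Around the genes, 26 flanking regions were accessible, 11 in both libraries, 11 in sh-VNGD only and 4 in sh-ctrl only. For regions found in 1 library, no share over all flanking regions was computed either. Relative to the median of 13791 flanking regions of all genes (−0.29), 3 of the 11 were called lower in sh-VNGD and 1 higher, beside 10.6% and 11.1% of all flanking regions. The median of the 11 was −0.47. The 13791 leave out regions at the start of any protein-coding gene or with a summit inside one, whereas the 11 were classed by their own HMG gene only. The 11 thus include the start of SMIM29 and regions that overlap SMIM29, DHDDS and SH3BGRL, so the sets are not fully alike. The interval lay wholly below 0 for 1 of the 11 and above it for none, beside 7.79% and 3.17% of all flanking regions.

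The 1 region with such an interval lay 8.33 kb after the end of HMGN1 (chr21:39333474-39333985), where no RefSeq gene overlaps. It had 25 tags in sh-VNGD and 75 tags in sh-ctrl, at −1.75 (−2.46 to −1.08), lower than all but 23 of 13791 flanking regions. The start of HMGN1 in the same libraries had 142 tags in sh-VNGD and 145 tags in sh-ctrl. The local background at the flanking region was 4.10 tags in sh-VNGD and 4.24 tags in sh-ctrl, unscaled, and the deposited fold enrichment was 5.10 in sh-VNGD and 14.5 in sh-ctrl. On the other side of HMGN1, within the non-coding gene LOC105372804, sh-VNGD alone had a peak of 15 tags and sh-ctrl alone a peak of 12 tags.

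HMGN4 sits among transfer RNA genes, short genes transcribed by RNA polymerase III, with 7 within 10 kb. Of these, 5 lay in regions of both libraries, compared with 61.2% of 443 tRNA genes in the RefSeq table. TRR-ACG1-2 and TRV-CAC1-6 lay in the HMGN4 start region itself. The region of TRT-AGT2-1, 5.02 kb before the gene, was called higher with 59 tags in sh-VNGD and 34 tags in sh-ctrl, at 0.63 (−0.001 to 1.29). After the gene the order was the other way. The region of TRI-AAT5-1 had 54 tags in sh-VNGD and 69 tags in sh-ctrl, at −0.52 (−1.06 to 0.02), and that of TRK-CTT2-4 had 79 tags in sh-VNGD and 94 tags in sh-ctrl, at −0.41 (−0.86 to 0.03). Between them and the gene lay 1 region of sh-VNGD only with 25 tags and 1 of sh-ctrl only with 11 tags.

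**Figure D5:**
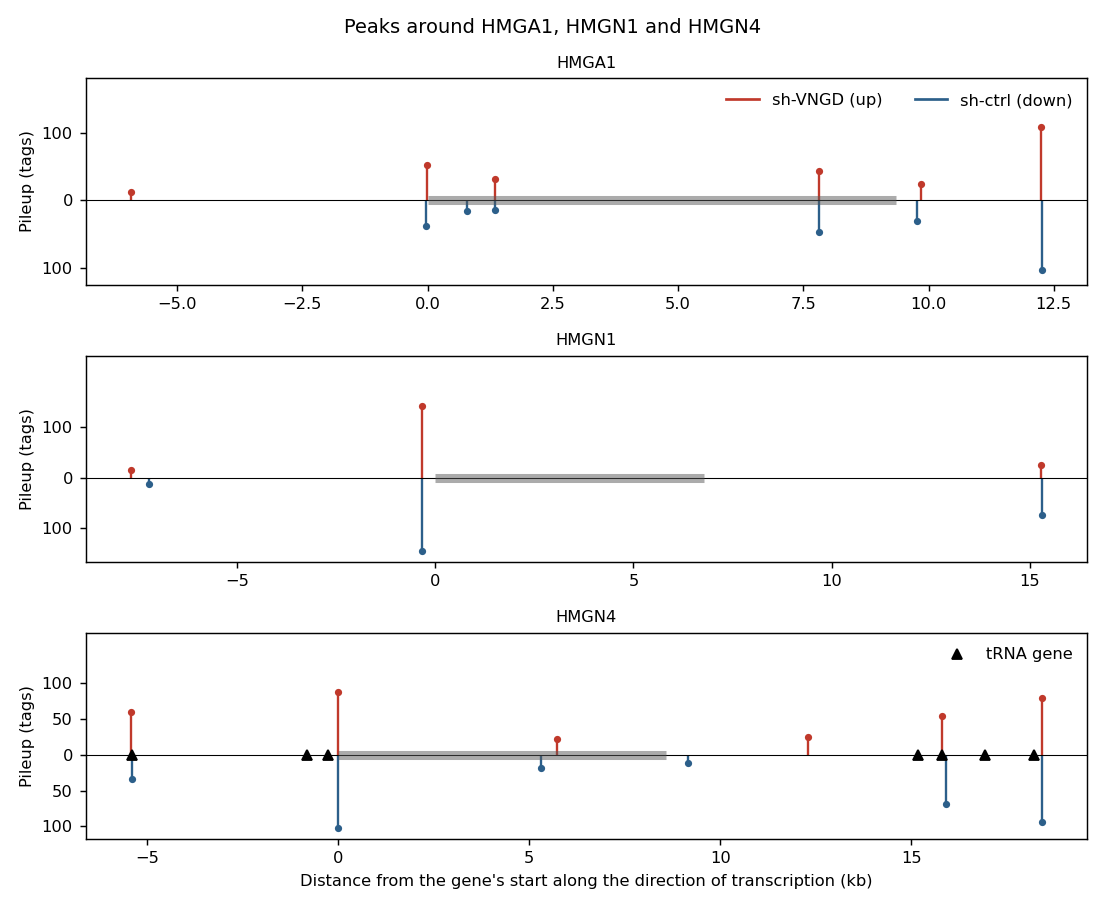
Highest summit pileup in tags of each region around HMGA1, HMGN1 and HMGN4 (sh-VNGD, red, upward; sh-ctrl, blue, downward), by distance in kb from the gene's first start along the direction of transcription; grey bars are the RefSeq bounds and triangles are tRNA genes. The region after HMGN1 has 25 tags in sh-VNGD and 75 tags in sh-ctrl, while the HMGN1 start has 142 tags in sh-VNGD and 145 tags in sh-ctrl.

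The remaining flanks were quiet or belonged to neighbours. HMGA1 had a region at the start of SMIM29, 2.15 kb after the gene, with 108 tags in sh-VNGD and 102 tags in sh-ctrl, at −0.08 (−0.49 to 0.32) relative to flanking regions. Its log2 ratio before this subtraction was −0.37, beside a median of −0.45 over gene starts. Closer to the end of HMGA1, a region that overlaps the bounds of SMIM29 had 25 tags in sh-VNGD and 31 tags in sh-ctrl, at −0.47 (−1.29 to 0.33). Before the first HMGA1 start, at 5.92 kb, sh-VNGD alone had a peak of 13 tags. HMGB3 had a region just past its end with 18 tags in sh-VNGD and 27 tags in sh-ctrl, called lower at −0.75 (−1.70 to 0.17). Around HMGB3 sh-VNGD alone had 3 peaks of 12 to 15 tags and sh-ctrl alone 1 peak of 27 tags. HMGN2 had a region inside its neighbour DHDDS with 30 tags in both libraries, at −0.16 (−0.94 to 0.62), 1 peak of sh-VNGD only with 18 tags and 1 of sh-ctrl only with 26 tags. HMGN3 had 1 flanking peak of sh-VNGD only with 12 tags.

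Over the loci as wholes, 52 of 83 peaks of the sh-VNGD library were also covered in sh-ctrl, 62.7% (Wilson 95% interval 51.9% to 72.3%), beside 53.9% of all sh-VNGD peaks lying near protein-coding genes. The unshared share of sh-VNGD peaks was 37.3% at the HMG genes, against a background of 46.1%. Of 70 sh-ctrl peaks, 51 overlapped a sh-VNGD peak, 72.9% (61.5% to 81.9%), beside 72.7%, with an unshared share of 27.1% against 27.3%. Both Wilson intervals treat peaks as independent, although 29 of the sh-VNGD peaks and 22 of the sh-ctrl peaks lie in the HMGB1 locus. Summed over the separately called peaks of a locus, the pileup per kept tags was lower in sh-VNGD at 9 of the 10 loci, as it was at 67.3% of 19207 genes, and without this scaling at 4 of 10, beside 22.8% of genes. Relative to the median of those genes (−0.19), 7 of the 10 lay lower, and the median of the 10 was −0.40. The lowest ratio of sums was that of HMGN1, with 182 tags over 3 peaks and 1938 bp in sh-VNGD and 260 tags over 4 peaks and 1701 bp in sh-ctrl. The local background under the start summits, per kept tags, was lower in sh-VNGD for 8 of the 10 genes, HMGA1 and HMGN5 being higher, and without scaling lower for 4, beside 86.1% and 27.0% of all genes. Its log2 ratio had a median of −0.40 over the 10 genes, against −0.30 over all genes.

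Genes related to the HMG proteins were read the same way, and 1 of 41 with a ratio was called, higher. Among all genes 3.22% were called lower and 6.91% higher. Of 19 other genes with HMG boxes, 15 had a ratio, 0 were called, and their median was −0.02. Highest were the chromatin remodeller subunits SMARCE1, with 13 tags in sh-VNGD and 10 tags in sh-ctrl (0.38), and PBRM1, with 63 tags in sh-VNGD and 52 tags in sh-ctrl (0.28). Lowest were HMGXB4, with 31 tags in sh-VNGD and 38 tags in sh-ctrl, and UBTF, a factor of ribosomal RNA genes, with 40 tags in sh-VNGD and 49 tags in sh-ctrl, both at −0.29. TOX3 had a region in sh-VNGD only, with 20 tags (4.44% of all genes had a region there in sh-VNGD only).

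Of 15 chromatin partners of HMG proteins, all had a ratio, with a median of −0.03, and 0 were called. Highest were LBR, the lamin B receptor, with 19 tags in sh-VNGD and 14 tags in sh-ctrl (0.44), and PARP1, which marks DNA breaks with poly(ADP-ribose), with 56 tags in sh-VNGD and 51 tags in sh-ctrl (0.13). Lowest were SUPT16H, a subunit of the histone chaperone FACT, with 96 tags in sh-VNGD and 125 tags in sh-ctrl, and the linker histone H1-10, with 30 tags in sh-VNGD and 39 tags in sh-ctrl, both at −0.38.

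Of 10 genes of HMGB1 receptors and release, 6 had a ratio, with a median of −0.12, and 1 was called, higher. This was TLR2, a receptor of released HMGB1, with 45 tags in sh-VNGD and 27 tags in sh-ctrl, at 0.74 (0.02 to 1.48), but 0.39 and not called with fold enrichment. Both pileups lay below 50 tags, and higher calls fell from 6.91% of all genes to 1.37% of genes with a mean of at least 50 tags. HAVCR2, an immune receptor that binds HMGB1, had 13 tags in sh-VNGD and 10 tags in sh-ctrl (0.38). CXCR4, a chemokine receptor, was lowest with 20 tags in sh-VNGD and 27 tags in sh-ctrl (−0.43), and PARP2, a DNA damage sensor, had 190 tags in sh-VNGD and 225 tags in sh-ctrl (−0.24). CXCL12, the ligand of CXCR4 that binds HMGB1, had a region in sh-ctrl only with 28 tags, as did TLR9 with 16 tags (2.97% of all genes had a region in sh-ctrl only).

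Of 8 genes linked to the control of HMGA2, 5 had a ratio, with a median of −0.17, and 0 were called. The RNA-binding proteins IGF2BP2, with 49 tags in sh-VNGD and 35 tags in sh-ctrl (0.49), and IGF2BP3, with 29 tags in sh-VNGD and 22 tags in sh-ctrl (0.40), were highest. DICER1, which cuts let-7 from its precursor, had 77 tags in sh-VNGD and 90 tags in sh-ctrl (−0.23). SMAD3, a mediator of TGF-beta signals, had 90 tags in sh-VNGD and 104 tags in sh-ctrl (−0.21). LIN28B, the inhibitor of let-7 maturation, had a region in sh-VNGD only, with 11 tags.

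The sh-VNGD library kept 31326715 of 48164322 tags read and the sh-ctrl library 22931980 of 51628228, since 35% of sh-VNGD tags and 56% of sh-ctrl tags repeated a position. Checked against the labelled line, RUNX2, the osteoblast master regulator, had a start region with 43 tags in sh-VNGD and 38 tags in sh-ctrl. TWIST1 had 41 tags in sh-VNGD and 12 tags in sh-ctrl, called higher at 1.77 (0.82 to 2.84). COL1A2 was called higher at 0.79 (−0.36 to 2.01), with 19 tags in sh-VNGD and 11 tags in sh-ctrl. FN1 was called lower at −0.71 (−1.61 to 0.16), with 19 tags in sh-VNGD and 31 tags in sh-ctrl. COL1A1 had a region in sh-VNGD only, with 15 tags, and SPARC and VIM had none within 1 kb of their starts. The epithelial markers EPCAM, KRT18 and CDH1 all had regions at an outer end, of 108 to 174 tags in sh-VNGD and 127 to 166 tags in sh-ctrl. Of the blood markers, CD3E was called lower at −1.27 (−1.91 to −0.65), with 32 tags in sh-VNGD and 77 tags in sh-ctrl, and PTPRC had no region. No start was listed for TWIST1, COL1A1, COL1A2, EPCAM, KRT18, CDH1 and CD3E. Their stronger outer end was read, which can be the far end of the gene. An open start or gene end is not a measure of expression.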

How the data were processed

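ATAC-seq peak lists of 2 libraries were used, 1 for sh-VNGD and 1 for sh-ctrl, grouped by the treatment label. Peaks were called by the authors for each library without a control, with MACS 2.1.0.20150731 per the file headers, with tags extended to 200 bp, 1 tag kept per position, a q cutoff of 0.05 and a local background window of 10000 bp. Tools and builds are named without roles in the submitters' processing notes: deepTools, MACS2 2.1.2 and Bowtie2 2.2.5, with GRCh38.p13 and hg38. The deposited pileup is a signal, the whole number of tags at the summit, not scaled for depth. The −log10 q and the fold enrichment, a ratio over the local background, are the authors' values for each peak as deposited. The filters on aligned reads are not given in the sources used here.

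Local background was computed as (pileup + 1) / fold enrichment − 1. Peaks of the assembled chromosomes were joined into regions where they overlapped by at least 1 bp. A start region had the summit nearest to a RefSeq start, within 1 kb, and each gene was taken at its strongest start. Starts and promoter bases came from RefSeq tables of GRCh38.p14, whose chromosome coordinates are those of GRCh38. The promoter table gave starts for 15841 of 20033 protein-coding genes, and for the other 4192, HMGB2 and HMGA2 among them, the stronger outer end of the bounds was used. Among the related genes named, this applied to TOX3 and HAVCR2, and the end read can be the far one. Inner regions had a summit within the bounds, and flanking regions were the rest. Regions of the HMG genes were classed by their own gene. Those of all genes were classed by any protein-coding gene, with starts taken first. The highest peak of each library in a region gave the ratio, with pileups divided by kept tags. The interval was checked on pileups simulated with counting error alone, the error it assumes, so the check does not cover peak calling or differences between libraries. No p-values were computed, because each group had 1 library. Intervals of pileups and ratios cover counting error only, since tags without molecular identifiers are not independent molecules. Wilson intervals of shares treat the peaks or pseudogenes as independent. The 10 genes and the lists of related genes were chosen with earlier results of these data known. Results for 2 genes of these lists are not reported here. All 10 genes are named with all their peaks, and of each other list the 2 highest and 2 lowest ratios and genes with a region in 1 library. Python 3.11.15, numpy 2.4.6, pandas 2.3.3, scipy 1.17.1 and matplotlib 3.10.9 were used.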

Additional observations from a re-analysis of the deposited data

How the results depend on the processing

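Of 178 values of 28 results recomputed under other choices, 166 stayed within their counting interval or within 1.5 times the count reported and 12 moved. Scaling cancels from ratios taken relative to the median, except through the choice of a gene's strongest start. Recomputing those ratios and their calls by tags read or without scaling was therefore almost bound to leave them unmoved. Of the called values recomputed (TLR2 and the flanking regions of HMGN1 and HMGN4) 0 changed sign, but some values that were no call did, among them the median over all genes and the HMGN2 start. The number of HMG genes at least 1.5-fold from all genes was 0, and became 1 with the summed pileup of the region (HMGN2 at 0.77, while HMGB2 stood at 0.48, both set by 2 sh-VNGD peaks summed against 1 of sh-ctrl) and 1 with HMGN2 read from the sh-VNGD summit nearest the sh-ctrl summit (−0.61). Without scaling for depth, the summed pileup was lower in sh-VNGD at 4 loci in place of 9, and the local background at 4 genes in place of 8, because scaling shifts every ratio by the same amount. The median over all genes moved to −0.11 with fold enrichment, 0.10 per tags read and 0 with no scaling, so ratios of regions are given relative to it, whereas locus sums and local background per kept tags depend on the scaling. With fold enrichment HMGB2 stood at 0.54, HMGA1 at 0.15, HMGA2 at 0.18 and HMGN2 at 0.31, and 0 genes of the other lists were called in place of 1, TLR2 then standing at 0.39. The region after HMGN1 was −1.43 with fold enrichment. Comparison with genes of a mean pileup of at least 50, and the nearest HMGN2 summit, were added after seeing the data, and 4 HMG genes lay below the median under that comparison. Depth limits the calls: of the 9 inner and flanking regions called, 8 had a counting interval that included 0. No paired analysis was possible because each group held 1 library.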

Other observations

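HMG genes have left many processed copies in the genome, and 178 pseudogenes named after 7 of the 10 genes were looked up in the RefSeq table. A peak overlapped 12 of them in sh-VNGD (6.74%, Wilson 95% interval 3.90% to 11.4%) and 14 in sh-ctrl (7.87%, 4.74% to 12.8%). Among 7272 other pseudogenes of the same length range a peak overlapped 8.25% in sh-VNGD and 8.24% in sh-ctrl. Highest were the peaks at HMGN3P1 on chromosome 1, with 104 tags in both libraries, and at HMGB1P36 on chromosome 3, with 88 tags in sh-VNGD and 79 tags in sh-ctrl. HMGB1P21 had 31 tags in sh-VNGD and 41 tags in sh-ctrl. The part of tags from the parent genes in these values was not tested.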
